A study of Rattus norvegicus with 18 samples.

Results

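The genes described here load peptides onto the major histocompatibility complex of the rat, the RT1 complex, and were followed in the kidneys of 3 rat groups: the class II chains RT1-Da, RT1-Db1, RT1-Ba and RT1-Bb, the class II chaperone Cd74, the class I light chain B2m, the proteasome subunits Psmb8 and Psmb9, and the peptide transporter subunits Tap1 and Tap2. They were chosen by name, as the probes whose platform gene symbol was 1 of these 10 symbols. All 10 were found among 9479 genes, as 15 of 15923 probe sets and 165 of 175477 probes, 11 probes to each set. RT1-Ba, RT1-Bb, RT1-Db1, B2m and Tap1 had a pair of sets each, and the others 1 set each. Read on from the sets to their single probes, the question was whether the rats of a group departed at all probes of a gene or only at some.

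Kidneys were taken from rats 36 days old, and 18 Affymetrix Rae230A arrays were hybridised, 3 for each sex of each rat group, so that a group had 6 arrays. Each array held RNA pooled from 3 rats. US and Mhm were inbred rats of Han:SPRD descent, which model autosomal dominant polycystic kidney disease and were kept at a breeding centre in the USA and in Mannheim. Mhm*BN rats came from backcrossing Mhm rats with the Brown Norway strain, so that the rats of a pool need not have been genetically alike. Arrays are named here by the chip number in their labels; chips 1 to 4 held 1 array of each sex of US and of Mhm, and chips 21 to 58 all the others. The RT1 haplotype of the animals, the cystic status of single animals and any treatment are not given in the sources used here. Per the study's methods, the kidney disease advanced faster in males than in females of each rat group. The pools are the replicates, and the p-values measure the spread between pools.

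The table held log2 intensities of single probes before scaling between arrays, and the median raw intensity of an array lay between 282 and 485.8. Male Mhm*BN chip 25 had the highest median. Its 5th percentile of raw intensity was 193.5, against 80 to 138.8 on the other arrays. All values below are log2 intensities after background correction and quantile normalisation, and a difference of 1 is a doubling of the signal. Adjusted p-values come from limma, fitted over all 18 arrays and adjusted over all genes, sets or probes, and a feature was called at an adjusted p below 0.05. A probe was said to depart from its set where its difference from the median of the other probes of the set passed the same threshold in the same comparison. The 3 comparisons of rat groups share arrays, so their values stand side by side and are not independent.

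Class II molecules are pairs of an alpha and a beta chain that bind peptides from proteins taken up by a cell and show them to helper T cells. RT1-Da and RT1-Db1 encode the alpha and beta chain of RT1-D, and RT1-Ba and RT1-Bb those of RT1-B; Cd74, the invariant chain, fills their groove until peptide is loaded. In the kidney they are carried mainly by dendritic cells and macrophages. Class I molecules need B2m as their light chain, and take peptides that the immunoproteasome subunits Psmb8 and Psmb9 help to cut and that the Tap1 and Tap2 transporter carries into the endoplasmic reticulum. Class II chains are among the most polymorphic genes of a mammal, and a short array probe reads both how much transcript there is and how well that transcript matches it. Neither the probe sequences nor the alleles of these rats were used here, so amount and match cannot be told apart.

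The class II chains share upstream letters whose exact form the promoters of the other members mostly lack. The letters were chosen after these promoters had been read, so this split follows in part from the choice. The sequences are shown because the results below separate these 4 genes from the other members. Some RT1 genes outside the members also differed between Mhm and US, as given further below. The 160 bases before the RefSeq start of each (build GRCr8), read 5′ to 3′ on the gene's strand, show in capitals the letters of the Y box (CTGATTGG), found in each, and of the X box (GNNACNGAT), not found in RT1-Ba, elements through which class II genes are known to be switched on together. RT1-Da and RT1-Ba lie on the plus strand at chr20:4515255-4515414 and chr20:4576897-4577056, and RT1-Db1 and RT1-Bb on the minus strand at chr20:4560163-4560322 and chr20:4604119-4604278.
RT1-Da: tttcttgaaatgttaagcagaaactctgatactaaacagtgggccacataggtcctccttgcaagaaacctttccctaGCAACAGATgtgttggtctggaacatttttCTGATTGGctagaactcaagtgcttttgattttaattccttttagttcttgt
RT1-Db1: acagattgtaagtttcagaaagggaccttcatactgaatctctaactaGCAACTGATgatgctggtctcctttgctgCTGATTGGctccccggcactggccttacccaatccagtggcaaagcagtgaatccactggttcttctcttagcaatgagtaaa
RT1-Ba: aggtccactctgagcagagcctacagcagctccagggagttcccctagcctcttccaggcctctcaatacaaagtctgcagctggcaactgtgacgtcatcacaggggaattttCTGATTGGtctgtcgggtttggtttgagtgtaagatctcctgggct
RT1-Bb: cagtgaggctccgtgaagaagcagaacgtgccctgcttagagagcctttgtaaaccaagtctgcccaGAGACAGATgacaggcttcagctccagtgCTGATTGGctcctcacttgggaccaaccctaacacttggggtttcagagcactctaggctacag

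The Y box letters stood in all 4 class II promoters, with their first base at −52, −46, −83 and −64 in RT1-Da, RT1-Ba, RT1-Db1 and RT1-Bb, counted from the start of the transcript. The X box letters stood at −82 in RT1-Da, −112 in RT1-Db1 and −93 in RT1-Bb, with a further match in RT1-Bb at −185. Of the 6 other members, searched on both strands from 250 bases before to 50 after the start, Psmb9 held the Y box letters, at 19 bases past its start, and none held those of the X box. Among all 33469 promoters of that length, 3.5% held the Y box letters and 7.83% those of the X box; the letters were chosen after the promoters had been read, and the 2 motifs did not overlap in the sequences shown. A match describes the window and not a site in use, and a missing exact match does not show that an element is absent.

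RT1-Ba, RT1-Bb and RT1-Db1 differed between Mhm and US rats at both of their sets, in opposite directions at the sets of RT1-Ba and of RT1-Bb and in the same direction at those of RT1-Db1. Between Mhm and US rats, 2 of the 10 genes (RT1-Bb and RT1-Db1) and 6 of the 15 sets passed the test, against 0.696% of all genes (66 of 9479) and 0.917% of all sets (146 of 15923). The 6 sets were both sets of RT1-Ba, of RT1-Bb and of RT1-Db1, 4 higher in Mhm and 2 lower. At each of them the 6 Mhm arrays lay wholly above or wholly below the 6 US arrays. These sets were called from the same arrays, so the separation is a description. Its share over all sets is not given here. On chips 21 to 58 alone, without the 4 low-numbered chips of US and Mhm, all 6 were called in the same direction. Over the 10 genes the median difference was 0.11, against 0.0014 over all genes.

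RT1-Bb, the beta chain of RT1-B, carried the largest contrast of the members' sets; as a gene, its difference between Mhm and US was smaller than that of RT1-Db1 (0.53 against 0.60). At set 1371033_at the US arrays read 6.96, 7.09 and 7.10 in females and 6.97, 7.09 and 7.13 in males, and the Mhm arrays 10.22, 10.24 and 10.45 in females and 10.05, 10.10 and 10.12 in males. Mhm*BN females read 9.99, 10.45 and 10.55, and Mhm*BN males 9.58, 9.72 and 9.76. All 12 Mhm and Mhm*BN arrays thus stood above all 6 US arrays. The difference between Mhm and US was 3.14 (SE 0.07, n = 6 arrays per group; limma, adjusted p = 3.06e-15), an 8.82-fold higher signal, and it ranked at place 2 of all 15923 sets by size. Between Mhm*BN and US it was 2.95, at place 1 of all sets.

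The other set of RT1-Bb, 1371065_at, ran the other way. US females read 8.70, 8.77 and 8.84 and US males 8.31, 8.59 and 8.71, while the Mhm arrays lay between 7.23 and 7.34 and the Mhm*BN arrays between 7.31 and 7.44. Signal in Mhm was lower than in US by 2.55-fold (log2 difference −1.35, SE 0.05, n = 6; limma, adjusted p = 5.16e-12), and in Mhm*BN the log2 difference was −1.28. Summarised over both sets as 1 gene, RT1-Bb stood 0.53 higher in Mhm and 0.46 higher in Mhm*BN than in US, values that neither set showed.

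RT1-Ba, the alpha chain of RT1-B, had the same kind of split. Set 1377334_at read 8.81, 8.89 and 8.96 in US females and 8.56, 8.88 and 8.91 in US males, but 7.70 to 7.85 in Mhm and 7.67 to 7.91 in Mhm*BN. The differences from US were −1.05 in Mhm (SE 0.05, n = 6; limma, adjusted p = 3.04e-10) and −1.03 in Mhm*BN. Set 1370822_at was instead higher in Mhm than in US by 0.58 (limma, adjusted p = 3.28e-06), with Mhm arrays between 10.38 and 10.59 and US arrays between 9.79 and 10.10. There Mhm*BN did not follow Mhm: its females read 10.16, 10.34 and 10.38 and its males 9.69, 9.86 and 9.95, and the difference from US was 0.14 (limma, adjusted p = 0.067).

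For RT1-Db1, the beta chain of RT1-D, both sets were higher in Mhm. Set 1370383_s_at, whose suffix marks a set that can read more than 1 transcript, lay between 9.29 and 9.58 in US and between 9.99 and 10.19 in Mhm. Mhm*BN females read 10.09, 10.48 and 10.72 there, and Mhm*BN males 9.95, 10.003 and 10.06. It was higher than in US by 0.60 in Mhm and by 0.73 in Mhm*BN, and no US array overlapped the other groups. Set 1370382_at was higher by 0.64 (limma, adjusted p = 9.5e-07) in Mhm and by 0.39 in Mhm*BN. Its arrays lay between 6.10 and 6.34 in US and between 6.71 and 6.96 in Mhm, and in Mhm*BN between 6.66 and 6.93 in females and between 6.32 and 6.45 in males. The male Mhm*BN arrays thus reached down to the US range. RT1-Da, the alpha chain of RT1-D, passed no test of rat groups as a set, with a Mhm minus US difference of 0.25 (SE 0.08; limma, adjusted p = 0.207).

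**Figure D1:**
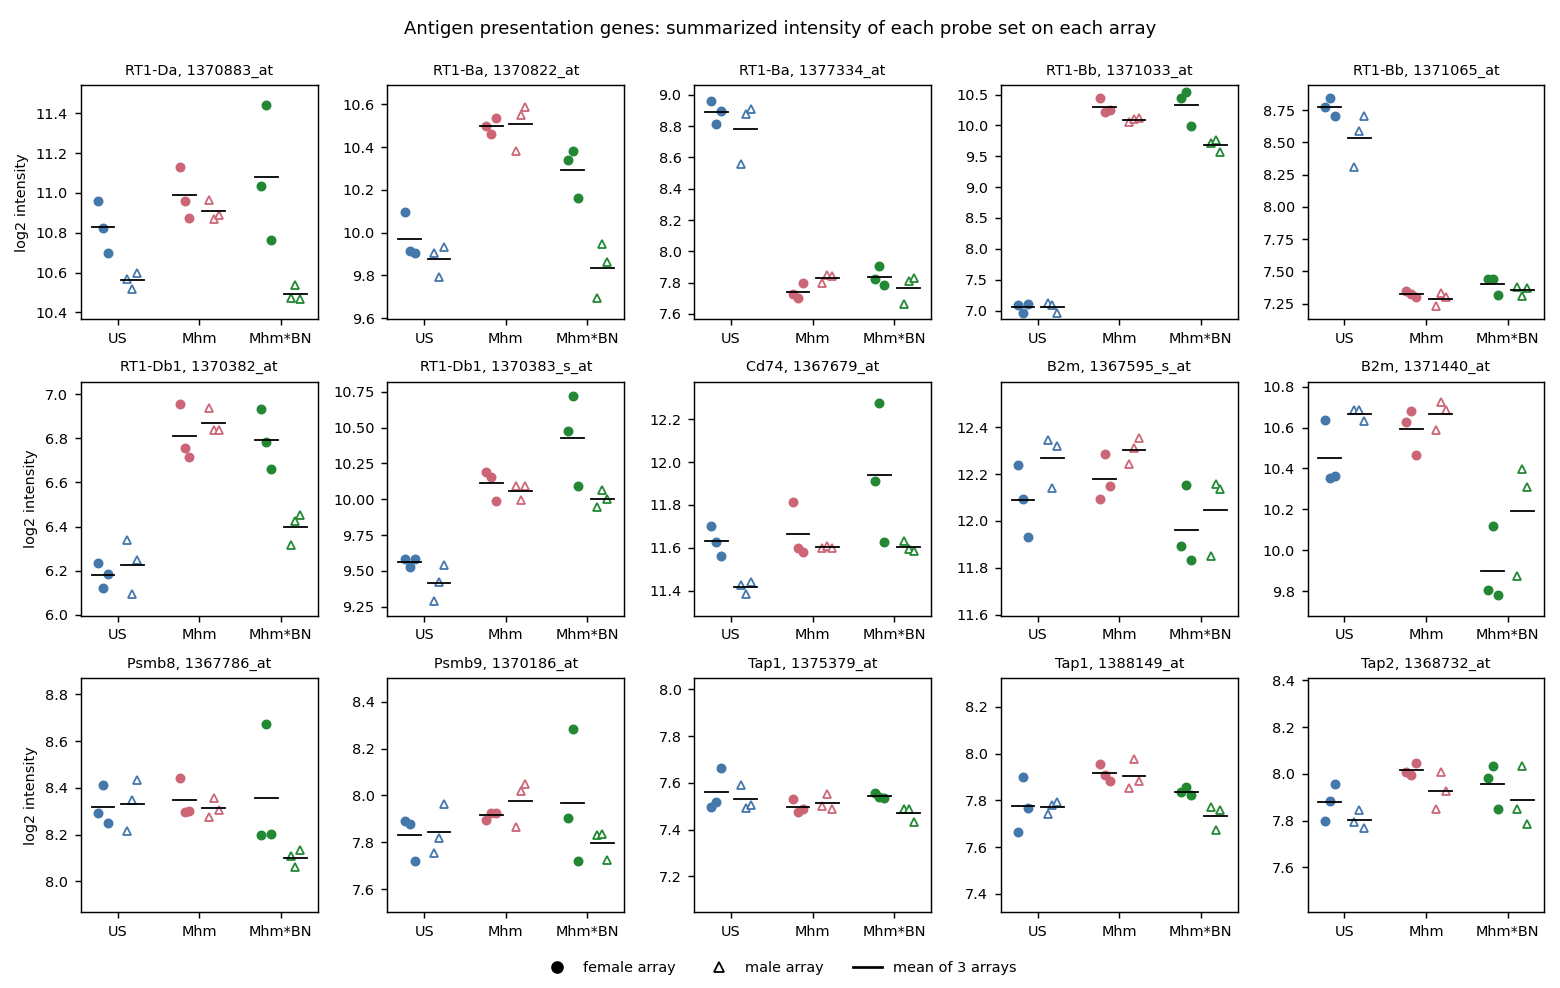
Normalised log2 intensity of the 15 probe sets in each array, by rat group, with 1 panel to a set and its own vertical axis; filled circles are female and open triangles male pools, and each bar is the mean of 3 arrays. The US arrays lie below all Mhm and Mhm*BN arrays at RT1-Bb 1371033_at (6.96 to 7.13 in US), and above them at RT1-Bb 1371065_at (8.31 to 8.84 in US) and at RT1-Ba 1377334_at.

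Within these sets the probes differed widely among themselves. Between Mhm and US rats, 49 of the 77 class II probes were called and 35 departed from their set, against 0.392% and 0.181% of all probes. A probe that stays level while the others of its set move also departs, and 26 of the 35 were themselves called. The share over all probes comes from sets of which 0.917% were called in this comparison. Of the 88 probes of Cd74, B2m, Psmb8, Psmb9, Tap1 and Tap2, 0 were called by limma and 0 departed (9 and 4 at an unadjusted p under 0.05). The SD of the probe differences at 1371033_at was 1.30, a spread that no set of the 15923 exceeded; the median set had 0.0853. The difference of that set as a whole was also among the largest of all sets.

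The probes of 1371033_at all pointed one way and still departed from each other. All 11 were called higher in Mhm than in US, by 1.36 to 5.07, and 10 of them departed from the set, 5 upward and 5 downward. At probe 10 the US arrays lay between 6.13 and 6.49, the Mhm arrays between 11.12 and 11.68 and the Mhm*BN arrays between 10.79 and 11.92. At probe 0 the same groups lay at 8.01 to 8.25, 9.31 to 9.64 and 9.08 to 9.99. At 1371065_at all 11 probes were lower in Mhm, 10 of them called, by 0.38 to 2.94. Its probe 6 read 9.86 to 10.33 in US, 7.02 to 7.37 in Mhm and 7.29 to 7.54 in Mhm*BN. Both RT1-Bb sets therefore differed between Mhm and US at all or nearly all of their probes, by unequal amounts. Of the 11 probes, 10 departed from the set at 1371033_at and 8 at 1371065_at.

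RT1-Da showed the opposite layout, with a contrast at 2 of 11 probes. Probe 6 lay between 7.09 and 7.35 in US and between 10.14 and 10.51 in Mhm, a difference of 3.16. Probe 7 lay between 8.44 and 8.98 in US and between 11.31 and 11.62 in Mhm, a difference of 2.81. The other 9 probes differed by −0.15 to 0.31, and none of them was called. Median polish passes over such a minority of probes: with the mean of the probes in its place, RT1-Da was called higher in Mhm by 0.67. The difference of 0.25 was itself called when Mhm*BN chip 46 was left out of the common fit (limma, adjusted p = 0.0229 as a set).

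Of the sets of RT1-Ba and RT1-Db1, 1377334_at and 1370382_at lay between these layouts, while at 1370822_at and 1370383_s_at all probes moved the same way and few or none departed. At 1377334_at, 7 of 11 probes were called lower in Mhm. Of the other 4, probes 0 and 1 read 8.59 to 9.15 and 8.40 to 8.66 in US against 8.61 to 8.89 and 8.47 to 8.71 in Mhm, and probes 6 and 7 stayed between 5.76 and 6.38 in every array. At 1370822_at all 11 probes were higher in Mhm, 5 of them called and 1 departing. At 1370382_at, 10 of 11 were higher and 7 called, with probes 7, 8 and 10 within 5.71 to 6.29 on every array, near the lowest values of the table. At 1370383_s_at all 11 were higher, 7 were called and none departed.

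**Figure D2:**
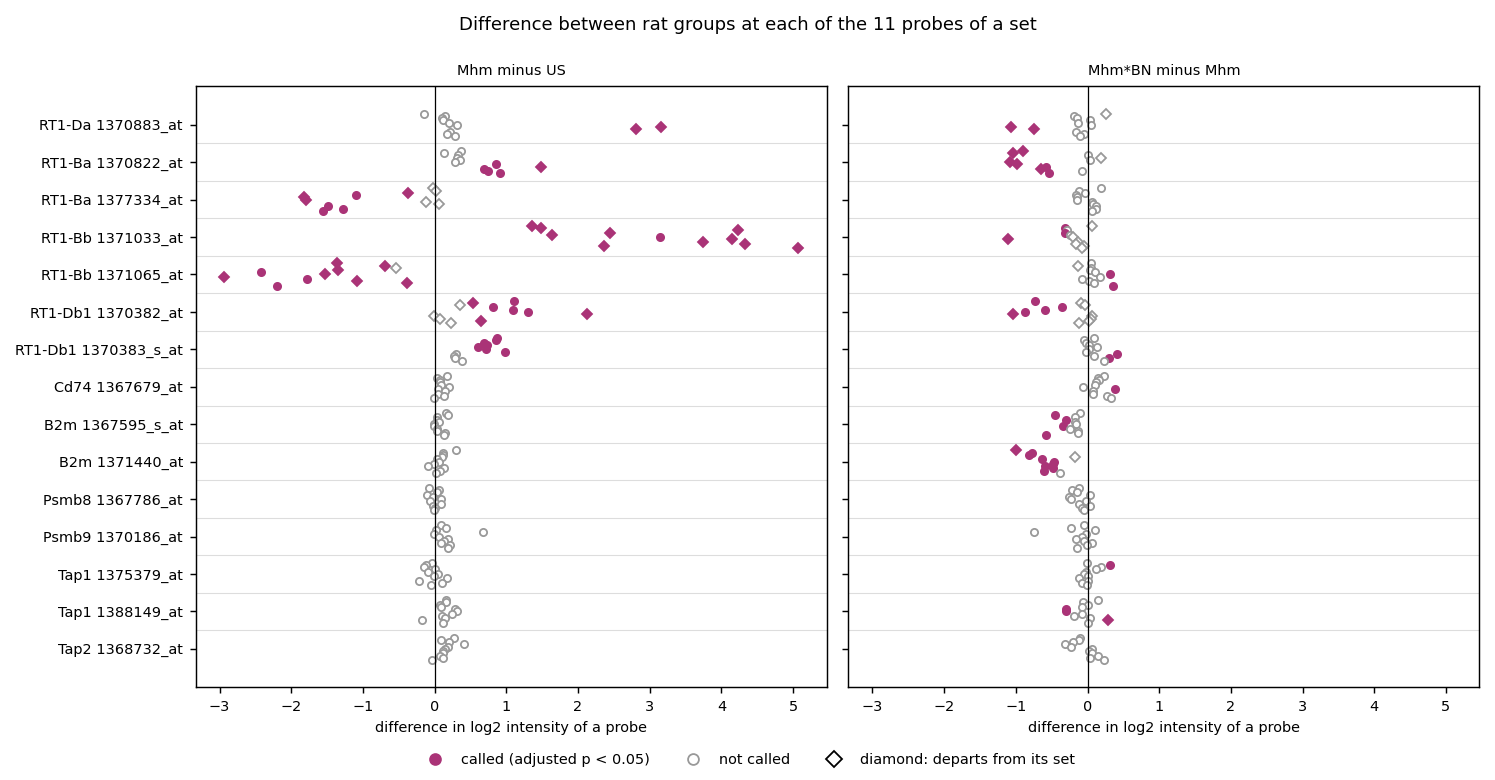
Log2 difference of each of the 165 probes, set by set, for Mhm minus US and for Mhm*BN minus Mhm; filled points passed the test and diamonds mark probes that departed from their set. Between Mhm and US the called points all belong to class II chains, from −2.94 to 5.07, while between Mhm*BN and Mhm the sets of B2m lie below 0 at 11 of 11 probes each.

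Where Mhm and US differed, Mhm*BN mostly took the level of Mhm. At 26 member probes the Mhm minus US difference was both called and departing (2 in RT1-Da, 4 in RT1-Ba, 17 in RT1-Bb and 3 in RT1-Db1). On a scale with US at 0% and Mhm at 100%, Mhm*BN lay at a median of 95% over these 26 probes (51.5 to 119%), and 18 lay within 20 percentage points of Mhm. Of these 18, 13 were probes of RT1-Bb, so the pooled median mainly describes that gene. These probes were picked for the Mhm and US values, so the scale is a description. Mhm*BN differed from US at all 26 and from Mhm at 8 of them. At the RT1-Da pair it lay at a median of 69.9%, with 86.7% in females and 53.5% in males. At the 3 RT1-Db1 probes the median was 81.7%, with 118% in females and 52.0% in males.

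Against Mhm rats, Mhm*BN rats were lower at 2 of the 10 genes, RT1-Ba and B2m, and at 5 of the 15 sets, and none was called higher. Of all genes 31.4% and of all sets 29.5% were called in this comparison, so the members' counts lie near the background. The median over members was −0.07, against 0.01 over all genes. Among the class II probes 21 of 77 were called and 24 departed, and among the other member probes 18 of 88 were called and 3 departed, against 17.1% called and 7.13% departing over all probes.

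RT1-Ba set 1370822_at departed in Mhm*BN at some probes only. As a set it was lower than in Mhm by 0.44 (limma, adjusted p = 1.56e-05), and 6 of its 11 probes departed from it, 5 downward and 1 upward. Probes 0, 1, 5 and 6 were lower by 0.90 to 1.08 and probes 7, 8 and 10 by 0.54 to 0.65, all called. Probes 2, 3, 4 and 9 differed by −0.07 to 0.18 and were not called. At probe 5 the 6 Mhm*BN arrays lay between 9.14 and 10.26, below all US arrays (10.40 to 10.71) and all Mhm arrays (10.61 to 10.97). At probe 3 the order was turned, with 9.70 to 10.44 in Mhm*BN, 9.07 to 9.62 in US and 9.55 to 9.998 in Mhm. Within 1 set, Mhm*BN rats thus lay below both other groups at some probes and above US at others.

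At RT1-Da, RT1-Db1 and RT1-Bb, probes called lower in Mhm*BN than in Mhm were not called lower than in US. At RT1-Da probe 6 the Mhm*BN females read 9.67, 9.83 and 10.11 and the males 8.64, 8.75 and 8.77, all above US and all below Mhm. At probe 7 the Mhm*BN females read 10.86, 11.24 and 11.51 and the males 10.05, 10.32 and 10.33, so that the females reached into the Mhm range and the males did not. At RT1-Db1 set 1370382_at probes 0, 3, 4, 5 and 6 were lower in Mhm*BN than in Mhm, by 0.35 to 1.03, and the other 6 were not called. At RT1-Bb set 1371033_at, probe 6 was lower than in Mhm by 1.10, with 10.24 to 11.01 in females and 9.23 to 9.45 in males against 10.91 to 11.32 in Mhm. Probes 1 (−0.32) and 3 (−0.31) of that set were called lower too, and the other 8 differed from Mhm by −0.28 to 0.06.

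As a gene, B2m was lower in Mhm*BN than in both other groups, and of the 22 probes of its sets 13 were called lower than in Mhm and 10 lower than in US. Of all probes, 17.1% were called in either direction against Mhm and 12.4% against US, and of all genes 31.4% and 27%. At set 1371440_at US females read 10.35, 10.36 and 10.63 and US males 10.63, 10.68 and 10.69. Mhm females read 10.47, 10.63 and 10.68 and Mhm males 10.59, 10.69 and 10.72. Mhm*BN females read 9.78, 9.80 and 10.12 and Mhm*BN males 9.87, 10.31 and 10.40. The Mhm*BN arrays all stood below the Mhm arrays, while the highest of them passed the lowest US array. The difference was −0.58 from Mhm (SE 0.08, n = 6; limma, adjusted p = 4.4e-05) and −0.51 from US, where it was called too. All 11 probes were lower than in Mhm, by 0.17 to 0.99, and 9 were called; the other 2 were probes 3 and 10. As a gene B2m was lower than in US by 0.32, and with arrays scaled to a common median this value became −0.19 and was no longer called.

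The other B2m set, 1367595_s_at, pointed the same way with smaller differences. Its Mhm*BN arrays lay between 11.84 and 12.16, its Mhm arrays between 12.09 and 12.35 and its US arrays between 11.93 and 12.35. The difference from Mhm was −0.24 (limma, adjusted p = 0.0137), with 11 of 11 probes lower, 4 of them called and 0 departing. From US it was −0.17 (limma, adjusted p = 0.073), with 9 of 11 probes lower and 1 called. With arrays scaled to a common median this set differed from Mhm by −0.04 and was no longer called.

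**Figure D3:**
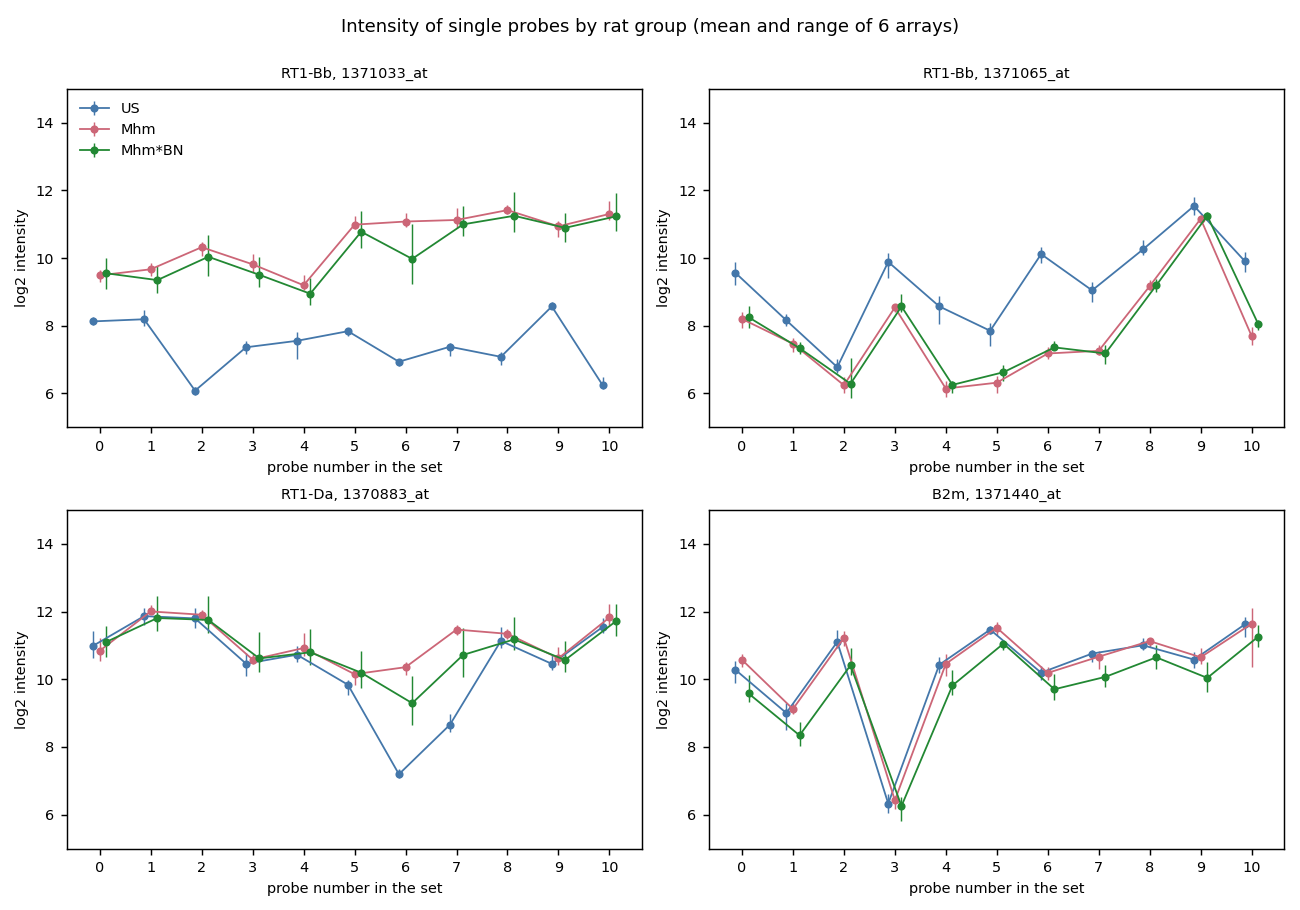
Log2 intensity along the 11 probes of 4 sets (RT1-Bb 1371033_at and 1371065_at, RT1-Da 1370883_at and B2m 1371440_at), in the file's probe order; joined points are means and bars the range of the 6 arrays of a rat group. US stands apart along nearly all probes of both RT1-Bb sets, at probes 6 and 7 alone in RT1-Da (7.09 to 7.35 at probe 6), and the Mhm*BN means lie below those of the other groups along B2m.

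Taken against US rats, Mhm*BN had 4 of the 10 genes called, RT1-Bb, RT1-Db1 and Cd74 higher and B2m lower, with 27% of all genes called. At the level of sets 7 of 15 were called, against 24.8% of all, and at the level of probes 60 of 77 class II probes and 14 of 88 others, against 12.4% of all. Of the class II probes 36 departed and of the others 1, against 4.53% of all probes. Against the mean of US and Mhm, 5 genes were called, with 35.1% of all genes: RT1-Db1 by 0.30, RT1-Bb by 0.19 and Cd74 by 0.19 higher, and B2m by 0.36 and RT1-Ba by 0.12 lower. Among sets 8 of 15 were called, against 32.9%, and among probes 38 of 165 departed, 36 of them of class II, against 9.76% of all probes. The gene-level value of RT1-Bb combines sets of opposite sign, and it turned to −0.84 when its departing probes were left out. It also lost its call without female Mhm*BN chip 46, on chips 21 to 58 alone, and with chips 1 to 4 as a term of the model (0.15 each). RT1-Ba set 1370822_at, which differed by −0.15 from the mean of the others, lost its call under median scaling (−0.09), without male Mhm*BN chip 25 (−0.11) and without female chip 47 (−0.12).

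Cd74, the chaperone of the class II chains, was higher in Mhm*BN than in US. Its arrays read 11.56 to 11.70 in US females, 11.38 to 11.44 in US males, 11.58 to 11.82 in Mhm females, 11.60 to 11.61 in Mhm males, 11.63 to 12.27 in Mhm*BN females and 11.58 to 11.63 in Mhm*BN males. Mhm*BN was higher than US by 0.25 (limma, adjusted p = 0.020), and the value of 12.27 came from 1 female pool, chip 46. Without chip 46 the difference from US was 0.16 and still called, and the difference from the mean of US and Mhm fell from 0.19 to 0.11 and was no longer called, and without male Mhm*BN chip 25 it was 0.18 and not called. The call against US was lost without female US chip 58 (0.23) and on chips 21 to 58 alone (0.27). All 11 Cd74 probes were higher than in US, 3 of them called, and none departed.

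The peptide-supply genes passed no test of rat groups as genes with all arrays in the fit. Without female Mhm*BN chip 46, Psmb8 was called lower in Mhm*BN than in Mhm (−0.18), than in US (−0.17) and than their mean (−0.18, against −0.10 with all arrays), and Psmb9 lower than in Mhm (−0.14, against −0.06). Psmb8 lay between 8.06 and 8.67 over all 18 arrays and Psmb9 between 7.72 and 8.28. Tap2 lay between 7.77 and 8.05. The Tap1 set 1375379_at lay between 7.43 and 7.66. The other Tap1 set, 1388149_at, was lower in Mhm*BN than in Mhm by 0.12 (limma, adjusted p = 0.0202), a call that was lost with the mean of the probes (−0.05) and without male Mhm chip 21 (−0.11). These 4 genes stand on chromosome 20 beside the class II chains, in the order RT1-Da, RT1-Db1, RT1-Ba, RT1-Bb, Tap2, Psmb8, Tap1 and Psmb9, with no other measured gene between them. B2m lies on chromosome 3 and Cd74 on chromosome 18, outside the RT1 region.

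RT1-Da and RT1-Db1 were lower in males than in females among Mhm*BN rats. The chains of RT1-B pointed the same way but were not called as genes. RT1-Ba differed by −0.21 (limma, adjusted p = 0.057) and RT1-Bb by −0.33 (limma, adjusted p = 0.133). With 1 array left out, RT1-Ba was called in 3 of 18 fits and RT1-Bb in 1. With all arrays, 2 of the 10 genes were called in Mhm*BN, RT1-Da by −0.59 (SE 0.11, n = 3 pools per sex; limma, adjusted p = 0.0104) and RT1-Db1 by −0.38 (SE 0.08; limma, adjusted p = 0.0225), against 1.41% of all genes. In US and in Mhm 0 of 10 were called by limma (1 and 0 at an unadjusted p under 0.05), against 3.15% and 1.32% of all genes. In Mhm*BN females RT1-Da read 10.76, 11.03 and 11.44 and in males 10.46, 10.47 and 10.54. Of the sets, 4 of 15 were called in Mhm*BN, all lower in males, against 1.13% of all sets: RT1-Bb 1371033_at by −0.64, RT1-Da by −0.59, RT1-Ba 1370822_at by −0.46 and RT1-Db1 1370382_at by −0.39. At each of the 4 the male arrays all stood below the female arrays. The same held at sets that were not called: RT1-Db1 1370383_s_at, Psmb8 1367786_at and both Tap1 sets. The share of such sets among all sets is not given here. The sets 1371065_at of RT1-Bb and 1377334_at of RT1-Ba, both lower in Mhm than in US, differed between the sexes by −0.05 and −0.07 and were not called. Cd74 differed by −0.34 (limma, adjusted p = 0.165), a difference that was −0.49 and called without female chip 47, and −0.17 without female chip 46. B2m 1371440_at differed by 0.29 in the other direction, not called; it was 0.45 and called without male chip 25, and 0.19 without male chip 26.

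Over the 3 rat groups together, 1 of the 10 genes was called between the sexes, RT1-Da, lower in males by 0.31 (limma, adjusted p = 0.0059), against 6.18% of all genes. On chips 21 to 58 alone this difference was −0.28 and not called. Whether the sexes differed between rat groups was tested by the interaction of sex and group: 0 members passed by limma (3 at an unadjusted p under 0.05), against 0.116% of all genes. The sex difference is therefore not shown to be particular to Mhm*BN. The comparison of Mhm*BN with the mean of US and Mhm, made within each sex, called 4 members in females (RT1-Bb, RT1-Db1 and Cd74 higher, B2m lower; 21.8% of all genes) and 2 in males (RT1-Ba and B2m lower; 17.9%), and the difference of those comparisons was called at 0 members by limma (4 at an unadjusted p under 0.05), against 0.0949% of all genes (5 higher and 4 lower, or 4 and 2 with arrays scaled to a common median). B2m was lower by 0.35 in females and by 0.38 in males.

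The female pool on chip 46 moved with this result. It had the highest RT1-Da (11.44), Cd74 (12.27), Psmb8 (8.67) and Psmb9 (8.28) of all arrays. The mean of 16 macrophage and dendritic cell markers was 8.57 on that array and 8.18 to 8.29 on the other 17, and the mean of 12 leukocyte markers was 8.32 against 8.08 to 8.18. Without chips 25 and 46, RT1-Da differed between the sexes by −0.40 and stayed called, and RT1-Db1 by −0.24 (limma, adjusted p = 0.165). The set differences became −0.55 at RT1-Bb 1371033_at, −0.34 at RT1-Ba 1370822_at and −0.36 at RT1-Db1 1370382_at (limma, adjusted p = 0.067). The call of RT1-Db1 was also lost without male chip 25 (−0.34) or 27 (−0.39), without female chip 45 (−0.35) or 46 (−0.29), and on chips 21 to 58 alone (−0.38), and that of its set 1370382_at without chip 45 (−0.32). With the spread taken from the 6 Mhm*BN arrays alone, neither RT1-Da (limma, adjusted p = 0.419) nor RT1-Db1 (limma, adjusted p = 0.572) was called. Between the sexes in Mhm*BN, the 16 macrophage and dendritic cell markers had a median of −0.14 and the 12 leukocyte markers one of −0.08, against −0.01 over all genes. In whole kidney, fewer cells of a type and less RNA per cell cannot be told apart, and the part of leukocyte content in the sex difference was not tested.

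**Figure D4:**
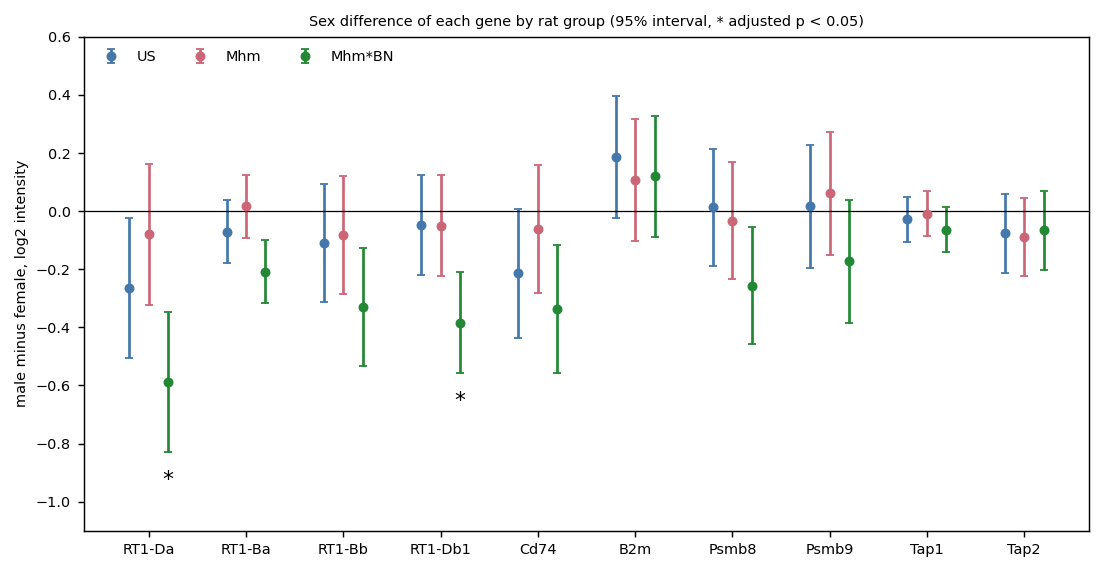
Male minus female log2 difference of the 10 genes in each rat group, with 95% intervals from the limma fit; asterisks mark calls. RT1-Da (−0.59) and RT1-Db1 (−0.38) in Mhm*BN are the called values.

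Other genes of the pathways were read from lists that were drawn up with earlier results known. Of 19 further class II genes 14 were measured, and against the mean of US and Mhm 3 were higher in Mhm*BN and 1 lower, near the 35.1% of all genes called. RT1-DMb and RT1-DMa, the chains of the molecule that swaps Cd74 fragments for peptide, were higher by 0.32 and 0.11, Ifi30, a lysosomal reductase, was higher by 0.22, and Ctsl, a lysosomal protease, was lower by 0.43. RT1-DMb was also higher in Mhm than in US, by 0.25 (limma, adjusted p = 0.0112). Of 44 further class I genes 21 were measured, with 9 higher and 5 lower, against the same 35.1% of all genes. RT1-CE16, a class I heavy chain, was higher by 0.71, Psmb6, the constitutive proteasome subunit that Psmb9 replaces, by 0.40 and Psme1, a proteasome activator, by 0.28. Canx, which holds the new heavy chain, was lower by 0.32. Between Mhm and US, 2 of the 21 were higher in Mhm (RT1-CE16 by 0.61, RT1-S3 by 0.28) and 1 lower (RT1-CE12, −0.36). Of all genes 0.696% were called in that comparison. RT1-CE16 in Mhm*BN was thus higher than in US by 1.01 but than in Mhm by 0.40.

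Interferon induces most of the members. Of 26 measured genes of interferon signalling and response, 13 were lower in Mhm*BN, against 15.5% of all genes called lower. The list held 37 genes, among them receptor chains and the kinase Jak2, which was 1 of the 13, and 1 was higher (the receptor chain Ifngr2), with a median of −0.08 against 0.01 over all genes. Ifi27 was lower by 0.65, and the antiviral genes Rsad2, Irf7 and Mx1 by 0.40, 0.39 and 0.32. The other 12 were not called, among them Irf1 (0.03), Cxcl9 (0.12), Cxcl10 (−0.01), Igtp (0.05) and Oasl (−0.09). Whether these shifts bear on the members was not tested.

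Markers of leukocytes, which carry class II in the kidney, were read in the same comparison, in which 35.1% of all genes were called. Against the mean of US and Mhm, 1 of 12 leukocyte markers was higher in Mhm*BN (Tyrobp, 0.13) and 1 lower (Ptprc, −0.16). Of 16 macrophage and dendritic cell markers, Fcgr2a (0.18) and Batf3 (0.13) were higher, and Aif1 and Cd68 (both −0.11) lower. The median of these 16 was 0.14 in females and −0.02 in males, against 0.02 and 0.01 over all genes. The mean of the 16 was 8.57 on female Mhm*BN chip 46, and 8.26 and 8.22 on female chips 45 and 47. US and Mhm females lay between 8.19 and 8.29, so the raised female value rests largely on 1 pool. Of 15 T and NK cell markers 2 were lower, and the 2 measured B cell markers differed by −0.02 and −0.01 and were not called. Of 22 kidney cell markers 2 were higher and 5 lower, among them the tubule transporters Slc12a1 by −0.50 and Slc34a1 by −0.41. The labelled tissue was checked by its tubule genes: Umod, Lrp2 and Aqp2 had mean levels of 13.21, 11.99 and 11.93. The part of these shifts in the results was not tested.

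The measured neighbours of the members on chromosome 20 held calls between Mhm and US as well. Of 20 measured neighbours, RT1-DMb and Vps52, a subunit of an endosomal tethering complex, were called higher in Mhm, by 0.25 and 0.35, against 0.696% of all genes called. In Mhm*BN against the mean of the others, 3 of the 20 were higher (RT1-DMb, Hsd17b8 by 0.25 and RT1-DMa) and 1 lower (Vps52, −0.14). Of all genes 35.1% were called in that comparison, a larger share than among these neighbours.

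The members with a called difference from the other rat groups were set beside all other genes for likeness of pattern. By the root mean square distance between centred means of the 6 sex and rat groups, computed in log2 units, the nearest gene outside the members was Vnn1 for both RT1-Bb (0.0853) and RT1-Db1 (0.109), Runx1 for RT1-Ba (0.0205), Coq8a for Cd74 (0.0399) and Ggnbp2 for B2m (0.0250). The gene-level patterns of RT1-Bb and RT1-Ba combine sets of opposite sign, so that their likeness describes neither set.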

How the data were processed

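The deposited table held log2 intensities of perfect-match probes on 18 Affymetrix Rae230A arrays, before any scaling between arrays; the authors fitted perfect-match values with a SAS package, and the step that wrote this table is not given in the sources used here. Groups came from the sample titles. In limma 3.58.1 (R 4.3.3) the intensities were background-corrected (normexp, offset 50), quantile-normalised, returned to log2 and summarised by median polish per gene or set; the probe departures used the normalised probes. A model with 6 group means was fitted to all 18 arrays, with Benjamini-Hochberg adjustment over all features and a threshold of 0.05. Of 15923 sets, 12076 named 1 gene, 90 several (not used per gene) and 3757 none or a control. The scripts were tested on simulated data. Named were the members, and of each list the called genes with the largest differences. The members and lists were chosen with earlier results of these data known, and the departures for single pairs of rat groups were added after values had been seen. No columns of other samples were found. Alternatives covered background correction, scaling, summary, dim features, chips 1 to 4, a chip block, and left-out arrays.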

Additional observations from a re-analysis of the deposited data

How the results depend on the processing

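At the sets of RT1-Bb and RT1-Ba the differences between Mhm and US kept their size when any array was left out: 3.10 to 3.16 at 1371033_at, −1.41 to −1.31 at 1371065_at and −1.11 to −1.02 at 1377334_at. Member probes departing between Mhm and US numbered 31 to 36 (35 with all arrays), and 35 to 40 (38) for Mhm*BN against the mean of the others. Over the member values, 3963 alternatives kept their direction and side of the threshold, 92 gained a call, 34 lost one, and 1 turned its sign: RT1-Bb as a gene, against the mean of US and Mhm, at −0.84 without its departing probes. The cause of the changes was not tested.

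Most lost calls stand beside their results above. Besides those, RT1-Db1 set 1370382_at between the sexes in Mhm*BN was −0.32 without background correction, B2m set 1367595_s_at against the mean of the others −0.02 under median scaling, and without chips 25 and 46 RT1-Bb as a gene and Cd74 against the mean of the others 0.15 and 0.10.

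Counts over all features moved more. Between Mhm and US, genes called numbered 43 under median scaling, 182 from the arrays of those groups alone and 163 without chips 25 and 46, and 35 to 106 with 1 array left out; the lowest came without female Mhm chip 41, the highest without female US chip 4, and male Mhm chip 22 (38), male US chip 38 (42) and female US chip 57 (42) also moved the count. Sets called numbered 237 on chips 21 to 58, 297 without chips 25 and 46, and 84 to 263 with 1 array left out, without male Mhm 22 and female US 4; the others that moved it were 21 (86), 37 (93), 38 (85), 41 (86), 57 (89) and 58 (96). Probes called numbered 1046 on chips 21 to 58, and 519 to 971 with 1 array left out.
Between the sexes in Mhm*BN, 18 genes were called from those arrays alone, and 89 to 186 with 1 left out (89 without chip 26). For Mhm*BN against the others in males the count was 1029 on chips 21 to 58, 937 without chips 25 and 46, and 707 to 2048 with 1 array left out (707 without chip 25), and in females 1254 to 2513 (1254 without chip 45). The difference of those comparisons between the sexes gave 4 genes on chips 21 to 58, 19 without chips 25 and 46, and 7 to 34 with 1 left out (15 without chip 25, 34 without chip 45). Departing probes of Mhm*BN against the others numbered 9569 without chips 25 and 46 and 11287 to 18603 with 1 array left out (11287 and 11289 without chips 25 and 45).

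Male and female chips whose numbers differ by 20, or by 2 on chips 1 to 4, were tried as a replicate block: the difference between the sexes in the comparison of Mhm*BN with the others then gave 14 genes against 9. Under the block RT1-Ba (−0.21) and RT1-Db1 set 1370383_s_at (−0.42) were called between the sexes in Mhm*BN, and RT1-Db1 (−0.16) and Cd74 (−0.20) over all groups. Correlations of paired deviations were 0.114 to 0.194 in Mhm and Mhm*BN and −0.151 to 0.063 in US, so the numbers were not taken to pair the samples.

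The small number of arrays limits precision, and probes near the lowest intensities, such as 7, 8 and 10 of 1370382_at, cannot show a lower level.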
